A study of Mus musculus with 2 samples.

Results

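The genes described are the MHC class II antigen presentation genes Cd74, H2-Aa, H2-Ab1, H2-Eb1 and H2-DMa, chosen by name and making up 5 of the 14714 genes in the count table. MHC class II molecules carry peptides from ingested material to the cell surface, where CD4 T cells read them. H2-Aa with H2-Ab1, and H2-Eb1 with its own alpha chain, form the peptide-binding dimers. Cd74, the invariant chain, holds the groove closed on the way to the endosome, and H2-DM, of which H2-DMa encodes one chain, removes the last invariant chain fragment so that a peptide can bind. Dendritic cells, macrophages and B cells carry class II constantly, and the transactivator Ciita switches the genes on in other cells, endothelial cells among them, after interferon gamma. In the atherosclerotic aorta, class II marks the antigen-presenting cells of the plaque and the adventitia.

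Aortas were taken from mice fed a western diet for 12 weeks, digested with enzymes and sequenced as single cells with 10x Genomics 3′ tags. One library came from Apoe-/- mice and 1 from EC-iDKO/Apoe-/- mice, whose inducible double knockout in endothelial cells lies on the same Apoe-/- background (below, the double knockout library). Every animal thus lacked Apoe, which makes mice prone to atherosclerosis. The labels name neither the 2 deleted genes nor the driver, the age or the number of mice behind a library. From knowledge of the line the targets are the epsins, endocytic adaptors: in endothelial cluster 9, Epn1 had 10 UMIs in the Apoe-/- and 2 in the double knockout library, and Epn2 had 20 and 26. Whether the 3′ tags fall in the deleted parts is not given in the sources used here, so these counts check nothing.

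The Apoe-/- library held 2428 cells and 13304762 UMIs (unique molecular identifiers, 1 per captured transcript) with a median of 3770 per cell. The double knockout library held 5489 cells and 6853185 UMIs with a median of 769 per cell. Levels are UMIs per 1000000 UMIs (CPM), summed over all cells of a population, and since 3′ tags are counted once per transcript they were not divided by gene length. With 1 library per genotype there is no replicate error and no test between genotypes. All intervals are 95% intervals that cover counting error only. A gene is called lower or higher where the ratio of CPM was at least 1.5 in either direction, its exact interval did not hold 1, and both libraries together had at least 20 UMIs in that population.

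The libraries also differed in cell makeup. All 11 macrophage markers and all 5 leukocyte markers were called lower over the whole double knockout library, beside 13.1% of 13257 genes. Of the endothelial markers 7 of 8, and of the adipocyte markers all 5, were called higher, beside 9.53% of genes. Their part in the class II values was not tested.

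The 4 class II genes on chromosome 17 lie within the H2 region. In GRCm38 with the GENCODE M21 annotation, all 4 are protein-coding: H2-DMa at chr17:34119541-34139101 and H2-Ab1 at chr17:34257689-34269419 on the plus strand, H2-Aa at chr17:34282744-34287823 on the minus strand and H2-Eb1 at chr17:34305867-34316674 on the plus strand. RefSeq promoter windows (GRCm38.p6) matched 3 of the 5 genes, H2-Aa, H2-Eb1 and H2-DMa. The chromosome that holds Cd74 was left out of this search, so Cd74 could not match. The stretch from 110 to 21 bases before the annotated start is shown for each, and no link of these letters to expression was tested. The stretch spans chr17:34287844-34287933 on the minus strand for H2-Aa and chr17:34305757-34305846 on the plus strand for H2-Eb1. For the first of the RefSeq H2-DMa starts it spans chr17:34122722-34122811 on the plus strand. That H2-DMa stretch lies inside the GENCODE gene given above, and not before its first base. Capitals mark matches to 2 motifs searched on both strands, the Y box TGATTGG and the X box, which do not overlap here.
H2-Aa: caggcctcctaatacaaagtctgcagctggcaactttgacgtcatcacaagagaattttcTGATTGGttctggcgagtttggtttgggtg
H2-Eb1: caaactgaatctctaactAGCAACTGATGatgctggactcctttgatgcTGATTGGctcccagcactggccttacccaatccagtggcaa
H2-DMa: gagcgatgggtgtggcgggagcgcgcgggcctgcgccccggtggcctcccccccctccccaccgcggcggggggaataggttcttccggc
The Y box begins 50 bases before the start in H2-Aa and 61 in H2-Eb1, and 4.42% of 32851 RefSeq promoter stretches of the same 90 bases hold it. The X box letters searched begin 92 bases before the start of H2-Eb1 and are held by 0.259% of those stretches. H2-Aa has no match to these exact letters. Other forms of the X box were not searched, so this does not show that H2-Aa lacks one. Neither set of letters is in the H2-DMa stretch shown, and the bases before the GENCODE start of H2-DMa are not shown. X and Y boxes are the elements through which RFX, NF-Y and Ciita are known to act on class II genes, and a match of letters is a description of the sequence only.

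Over the whole library, all 5 genes were called lower in the double knockout, where 13.1% of 13257 genes were called lower. Cd74, the invariant chain, had 6506 UMIs (489 CPM) in the Apoe-/- library and 87 UMIs (12.7 CPM) in the double knockout library, 38.5-fold lower (interval 31.2 to 48.2). H2-Aa had 2406 and 38 UMIs and was 32.6-fold lower (23.7 to 46.2). H2-Ab1 had 2120 and 42 UMIs and was 26.0-fold lower (19.2 to 36.2). The intervals of these 3 genes overlap one another. H2-Eb1 had 2071 and 35 UMIs and was 30.5-fold lower (21.8 to 43.9). H2-DMa, the peptide-editing chain, had 167 and 17 UMIs and was 5.06-fold lower (3.07 to 8.89), a smaller difference whose interval lies below those of the other 4 genes. Summed, class II stood at 997 CPM in the Apoe-/- and 32.0 CPM in the double knockout library, 31.2-fold lower (27.3 to 35.8), while the median log2 ratio over all genes tested was -0.01. Without the cell with the most class II UMIs of each library, which held 718 and 91 of them, the sum was 50.6-fold lower.

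Most of this RNA sat in few cells. Cluster 13, the main cluster of the deposited immune/inflam class, held 144 cells (5.93%) of the Apoe-/- library and 86.3% of its class II UMIs. In the double knockout library it held 53 cells (0.966%) and 52.5% of the class II UMIs, of which 1 cell held 91. Both the number of cluster 13 cells and the level within them were therefore lower in the double knockout library.

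Across the 21 deposited clusters of the Apoe-/- library the summed class II level ran from 13234 CPM in cluster 13 (12993 to 13479) to 13.8 CPM in cluster 11 (7.15 to 24.2). Cluster 15 followed with 2261 CPM (2049 to 2490) and cluster 19 with 1865 CPM (1420 to 2406), which overlap. The value of cluster 19 rests on 1 of its 9 cells, which held 57 of 59 UMIs. Cluster 10 had 393 CPM (345 to 447), and its interval overlaps none of its neighbours in this order. Clusters 8, 0 and 7 had 272, 268 and 262 CPM and are not told apart by counting error. In cluster 7, 3 cells held 129 of the 171 UMIs, and in cluster 17, 2 cells held 50 of 59.

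In the double knockout library cluster 13 again stood highest, at 2356 CPM (1945 to 2828), or 530 CPM without its 1 highest cell. Endothelial cluster 9 came next at 104 CPM (69.0 to 150), overlapping cluster 15 at 84.7 CPM (38.7 to 161). All other clusters were at or below 33.8 CPM, and clusters 10, 18 and 20 had no class II UMI. For cluster 10, with 94 cells, a count of 0 allows up to 53.2 CPM.

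**Figure D1:**
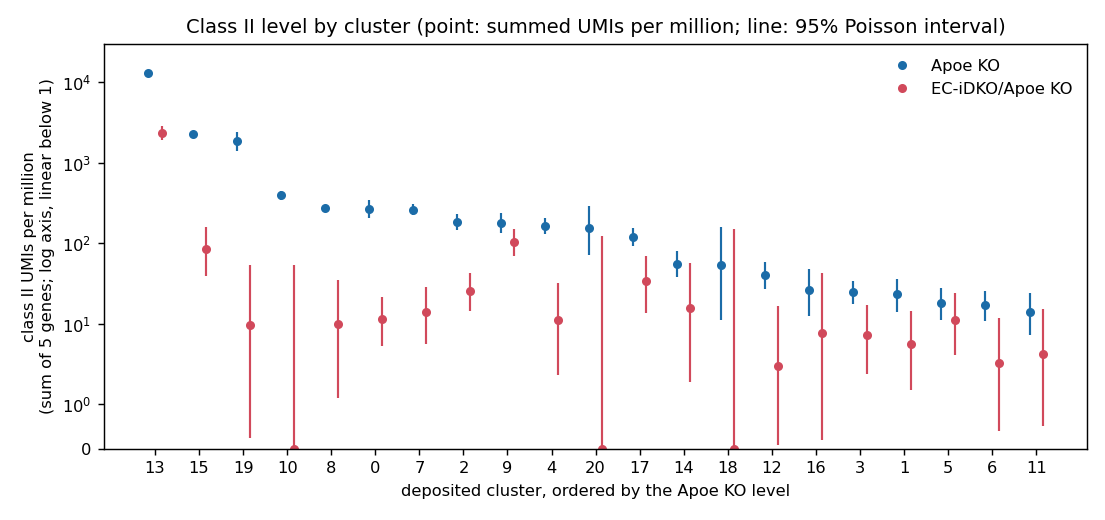
Summed class II level in CPM (vertical axis, logarithmic above 1) in each deposited cluster, ordered by the Apoe-/- level, with points for the Apoe-/- and double knockout libraries and lines for 95% Poisson intervals. Cluster 13 is highest in both libraries, at 13234 and 2356 CPM, and the libraries lie closest together in cluster 9 among the clusters over 100 CPM.

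Within cluster 13, 4 of the 5 genes were called lower in the double knockout library, where 5.62% of 5537 genes were called lower and 8.33% higher. Cd74 stood at 6452 CPM (5581 UMIs) in the Apoe-/- and 1045 CPM (51 UMIs) in the double knockout library, 6.18-fold lower (4.69 to 8.31). H2-Aa was 5.74-fold lower (3.75 to 9.29), at 2469 and 430 CPM. H2-Eb1 was 5.39-fold lower (3.44 to 8.98), at 2098 and 389 CPM. H2-Ab1 was 5.32-fold lower (3.40 to 8.86), at 2071 and 389 CPM, so the 4 chains shifted by similar factors. H2-DMa had 124 and 5 UMIs, 143 and 102 CPM, and was called neither way (1.40-fold lower, 0.584 to 4.39). The median log2 ratio of the 5 genes was -2.43, beside 0.19 over all genes tested in this cluster.

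The double knockout value rests on 1 cell. That cell, with 3568 UMIs in all, held 91 of the 115 class II UMIs of cluster 13: 39 of Cd74, 18 of H2-Aa, 16 of H2-Ab1, 16 of H2-Eb1 and 2 of H2-DMa. It had no UMI of C1qa, C1qb, C1qc or Lyz2, which encode complement C1q and lysozyme and mark macrophages. It did hold 46 UMIs of Cst3, a protease inhibitor, 14 of Cytip and 1 of Flt3, a receptor of dendritic cells and their precursors. Cst3 and Cytip are not among the dendritic cell markers listed for these data. Those markers summed to 5 UMIs over all double knockout cells of cluster 13, with 3 of the 6 counted genes at 0. The type of this cell was not tested. Leaving out the cell with the most class II UMIs of each library, a choice made after the values were seen, the level was 12670 CPM in the Apoe-/- and 530 CPM in the double knockout library, 23.9-fold lower. With that cell kept, the sum was 5.62-fold lower over all cells of the cluster, and 2.87-fold lower once cells below 1000 UMIs or with 10% or more mitochondrial UMIs were removed. Among cells with at least 1 C1q or Lyz2 UMI, 131 and 48 cells, class II was 19.7-fold lower, with 8820 and 22 UMIs.

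Cell by cell, 112 of 144 Apoe-/- cells of cluster 13 had a class II UMI, with a lowest value of 0, a median of 18 and a highest of 718 UMIs. Of the 53 double knockout cells, 6 had one, with a median of 0. C1q or Lyz2 UMIs were found in 131 of 144 and in 48 of 53 cells, so most cells of either library carried macrophage transcripts. Since depth differed (medians of 4565 and 696 UMIs), each cell was thinned at random to 1000 UMIs, which left out 5 Apoe-/- and 38 double knockout cells. After thinning, 94 of 139 Apoe-/- cells (67.6%, exact binomial interval 59.2 to 75.3%) and 4 of 15 double knockout cells (26.7%, 7.79 to 55.1%) had a class II UMI. The C1q or Lyz2 share was 82.0% (74.6 to 88.0%) and 80.0% (51.9 to 95.7%). The C1q or Lyz2 share is near its upper end in both libraries and shows little of the amount: per 1000 UMIs, C1q and Lyz2 gave 8.94 and 3.27 UMIs and class II 13.4 and 2.20. Thinned to 500 UMIs, which kept all 144 and 53 cells, the class II share was 63.2% (54.8 to 71.1%) and 9.43% (5 of 53 cells, 3.13 to 20.7%), so the double knockout share depends on which cells are kept. Smooth muscle cells are taken here as a background, in which free RNA, doublets and own expression are not told apart. Their thinned class II share was 6.25% of 1440 Apoe-/- cells and 0.460% of 1523 double knockout cells, from median depths of 4856 and 771 UMIs. Before thinning, 3 Apoe-/- smooth muscle cells with at least 10 class II UMIs held 82 of 501.

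**Figure D2:**
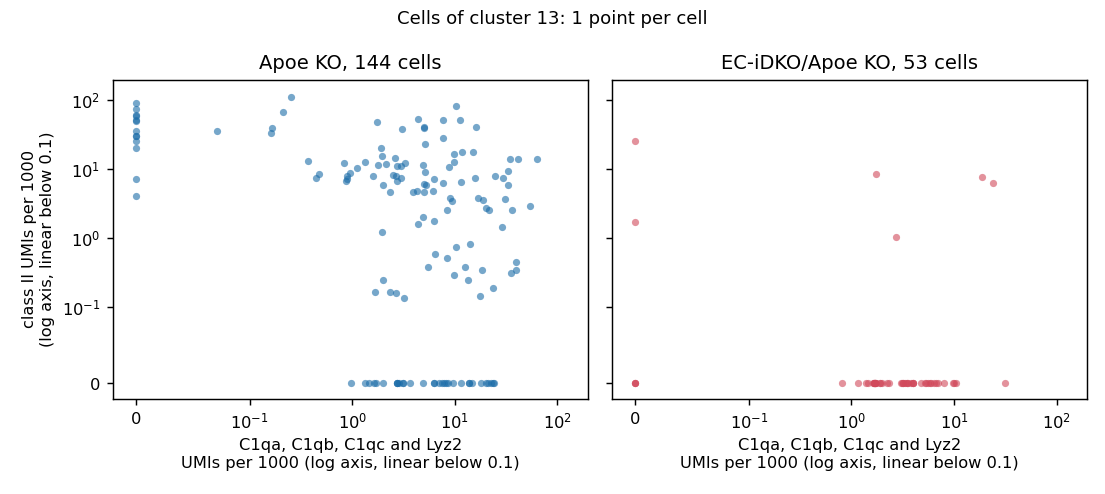
Class II UMIs per 1000 UMIs of the cell (vertical axis) against C1qa, C1qb, C1qc and Lyz2 UMIs per 1000 (horizontal axis) for each cell of cluster 13, 144 Apoe-/- cells on the left and 53 double knockout cells on the right; both axes are logarithmic above 0.1. In the Apoe-/- library 112 cells lie above 0 on the vertical axis, and in the double knockout library 6 do.

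Transcripts of other cell types differed within cluster 13 in the same comparison. The 5 smooth muscle markers summed to 11912 CPM in the Apoe-/- and 34414 CPM in the double knockout library, with 5 of 5 called higher and none at 0. The 11 macrophage markers summed to 15502 and 4711 CPM, with 8 of 11 called lower and 2 at 0 in the double knockout library. Their part in the class II difference was not tested. Scaled to the summed UMIs of 10 macrophage markers instead of all UMIs, class II was 1.73-fold lower, and 7.76-fold lower without the highest cell of each library. H2-DMa on that scale was 2.33-fold higher in the double knockout library, from 5 UMIs.

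Among the Apoe-/- cells of cluster 13, class II content was graded. There were 32 cells with no class II UMI, 21 with 1 to 9 and 91 with at least 10, with 6 cells at 5 to 9 and 22 at 10 to 19, close to that bound. The 10 highest cells held 43.8% of the UMIs. Of the 91 cells with at least 10 UMIs, 12 had no C1q or Lyz2 UMI. In those 12 cells Cd74 stood at 21254 CPM, and they held 28 UMIs of Ccr7, the receptor that guides dendritic cells to lymph nodes, of 55 in the cluster. They also held 11 UMIs of Ccl22 and 7 of Flt3. Other dendritic cell markers are not given here for these 12 cells. Itgax, also counted as a dendritic cell marker, had r = -0.03 with the class II sum over 139 thinned Apoe-/- cells of the cluster. In the other 79 cells Cd74 stood at 8138 CPM. These are ranges of one measure and not cell types. Acta2, the smooth muscle actin, stood at 15151 CPM in the cells with no class II UMI, 9245 CPM in those with 1 to 9, and 3830 and 2670 CPM in those with at least 10 with and without a C1q or Lyz2 UMI. The part of that smooth muscle RNA in the grading was not tested.

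The 4 chain genes varied together from cell to cell. Over 139 thinned Apoe-/- cells of 1 library, the correlation of UMIs with Cd74 was r = 0.89 for H2-Aa, 0.88 for H2-Ab1 and 0.81 for H2-Eb1, given as a description across cells. H2-DMa, at 0.129 UMIs per thinned cell, correlated with the 4 chains at 0.36 to 0.48. The class II sum correlated with Cd86, a costimulatory ligand for T cells, at 0.48, and with Ciita at 0.29. With Lyz2 it correlated at r = -0.25 and with Spp1, which encodes osteopontin and is high in foamy macrophages, at -0.21. Spearman's rho was 0.35 for Cd86, 0.27 for Ciita, -0.43 for Lyz2 and -0.57 for Spp1, the same signs. Other macrophage or foamy macrophage markers had smaller rho: Gpnmb -0.29, Trem2 -0.19, C1qa -0.19, Lgals3 -0.08 and Ctss 0.02. The smooth muscle gene Acta2 had r = -0.32 and rho = -0.32.

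Cd74 made up 49.3% (48.4 to 50.2%) of the 11323 UMIs of Cd74, H2-Aa, H2-Ab1 and H2-Eb1 in Apoe-/- cluster 13 and 49.5% (44.5 to 54.5%) in cluster 15. The H2 chains were divided differently in those 2 clusters: H2-Aa made up 37.2% (36.0 to 38.5%) of the UMIs of H2-Aa, H2-Ab1 and H2-Eb1 in cluster 13 and 26.3% (20.4 to 32.9%) in cluster 15, and H2-Ab1 31.2% (30.0 to 32.4%) and 41.5% (34.6 to 48.5%). Over all Apoe-/- cells outside cluster 13, H2-Aa made up 31.6% (28.5 to 34.8%) and H2-Ab1 38.5% (35.2 to 41.8%). These cells include cluster 15, which gave 205 of their 855 H2 chain UMIs, so they are not a separate comparison. The division in cells outside both cluster 13 and cluster 15 was not tested. In cluster 8 of the modEC class Cd74 made up 61.5% (56.6 to 66.2%) of 413, and in cluster 2 it made up 34.2% (23.5 to 46.3%) of 73. Both Cd74 intervals lie outside that of cluster 13. These UMIs came from 88 cells in cluster 8, of which the 10 highest held 46.5%, and from 35 cells in cluster 2.

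Outside cluster 13 all 5 genes were again called lower in the double knockout library, where 11.1% of 13003 genes were called lower and 9.81% higher. There were 1823 class II UMIs in 2284 Apoe-/- cells and 104 in 5436 double knockout cells, 147 and 15.3 CPM, 9.59-fold lower (7.87 to 11.8). After thinning to 1000 UMIs, which leaves out shallower cells, the sum was 26.8-fold lower (593 and 19 UMIs), with Cd74 49.4-fold and the 3 H2 chains between 18.9-fold and 27.7-fold lower. Without thinning, Cd74 was 14.1-fold lower (10.1 to 20.2) and H2-Aa, H2-Ab1 and H2-Eb1 between 7.82-fold and 8.75-fold lower. H2-DMa was 1.96-fold lower (1.01 to 4.08) on 43 and 12 UMIs. In the Apoe-/- library 28 of these cells had at least 10 class II UMIs and together held 684 of the 1823, and 17 of the 28 had a C1q or Lyz2 UMI. No double knockout cell outside cluster 13 had more than 4.

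Over the pooled cells outside cluster 13, macrophage transcripts differed between the libraries in the same direction as class II. After thinning, class II UMIs were found in 29.0% (24.2 to 34.1%) of 338 Apoe-/- cells with a C1q or Lyz2 UMI and in 9.68% (8.36 to 11.1%) of 1819 cells without one. The Apoe-/- SMC class (13.6% and 5.68%) and modEC class (46.8% and 22.8%) went the same way. The Apoe-/- EC class went the other way, with 3 of 65 and 9 of 62 cells. In the double knockout library, class II was in 0 of 6 cells with a C1q or Lyz2 UMI and 18 of 1843 without. Over all cells outside cluster 13 the 11 macrophage markers summed to 254 CPM in the Apoe-/- and 12.5 CPM in the double knockout library, with 10 of the 10 measured called lower and 3 of the 11 at 0 in the latter. Without any cell that had a C1q or Lyz2 UMI, the class II sum was 6.87-fold lower, from 910 and 100 UMIs. Their part in the remaining difference was not tested.

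The modEC class, too, held less class II in the double knockout library. In modEC, an abbreviation the sources used here do not explain, class II stood at 334 CPM (962 UMIs, 495 cells) in the Apoe-/- and 9.59 CPM (7 UMIs, 586 cells) in the double knockout library, 34.9-fold lower (16.9 to 86.9). Without thinning, that interval lies above those of the SMC and EC classes. It also lies above that of the immune/inflam class, 5.77-fold lower (4.84 to 6.94), but 1 cell held 91 of the 125 double knockout UMIs there, and without the highest cell of each library the 23.9-fold gap of cluster 13 falls inside the modEC interval. All 4 measured genes were called lower there, beside 8.20% of 9915 genes, with H2-DMa at 15 and 0 UMIs. H2-Aa, at 134 and 0 UMIs, was at least 11.3-fold lower. Thinned to 1000 UMIs, modEC cells held 289 and 0 class II UMIs (469 and 171 cells). SMC cells then held 152 and 7 (1440 and 1523 cells), a wider gap than without thinning. The order of the classes at equal depth was not tested. After thinning, 30.9% of 469 Apoe-/- modEC cells had a class II UMI and 33.7% had a C1q or Lyz2 UMI, against 0 of 171 double knockout cells for either, which allows up to 2.13% at this depth. C1q and Lyz2 transcripts thus differed in the same direction in this class, and their part was not tested.

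Smooth muscle cells held little class II. The SMC class stood at 58.1 CPM (501 UMIs in 1536 cells) in the Apoe-/- and 10.2 CPM (57 UMIs in 4407 cells) in the double knockout library, 5.69-fold lower (4.32 to 7.62). The 4 chain genes were called lower, beside 7.52% of 12000 genes, and H2-DMa, with 15 and 7 UMIs, was called neither way. Fibroblasts had 24 UMIs in 99 cells and 1 UMI in 55 cells, which leaves the ratio unresolved (0.775-fold to 195-fold lower).

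**Figure D3:**
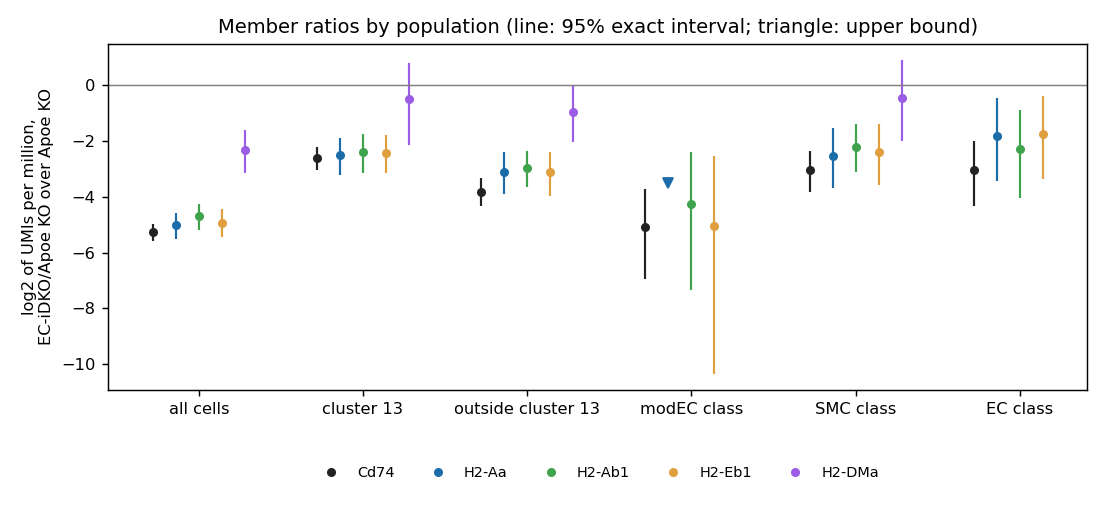
Log2 ratio of CPM, double knockout over Apoe-/-, for each gene in 6 populations; points with lines are ratios with 95% exact intervals and the triangle is an upper bound where the double knockout library had no UMI. Genes with under 20 UMIs are left out, and the H2-DMa intervals reach 0 in cluster 13 and the SMC class.

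Cluster 9, where endothelial markers concentrate, had the highest double knockout level after cluster 13. In cluster 9 the 8 endothelial markers summed to 2034 CPM in the Apoe-/- and 3697 CPM in the double knockout library, and the 11 macrophage markers to 2439 and 18.5 CPM. In the EC class as a whole, class II stood at 369 CPM (132 UMIs in 131 cells) in the Apoe-/- and 75.5 CPM (29 UMIs in 380 cells) in the double knockout library, 4.89-fold lower (3.25 to 7.58), with all 4 measured genes called lower beside 10.7% of 5350 genes. In the Apoe-/- cells, 4 of the 131 held 103 of the 132 UMIs, and all 4 had a C1q or Lyz2 UMI. Cluster 9, with 98 and 310 cells, showed a smaller gap of 180 and 104 CPM, 1.74-fold lower (1.07 to 2.87). The direction of this gap was not stable. After thinning to 1000 UMIs, cluster 9 had 0.156 class II UMIs per 1000 in the Apoe-/- library (15 UMIs). The double knockout library then had 0.177 (11 UMIs).

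The cluster 9 UMIs were spread thinly. In the double knockout library 25 of 310 cells (8.07%) had a class II UMI, none more than 2, and in the Apoe-/- library 17 of 98 did, with up to 15 and with 30 of the 49 UMIs in 2 cells. After thinning, 10 of 62 double knockout cells (16.1%, 8.02 to 27.7%) had a class II UMI and none had a C1q or Lyz2 UMI, which allows up to 5.78%. Thinned to 500 UMIs, which kept 309 cells, the class II share was 5.50% (3.24 to 8.66%), against 0.545% (0.350 to 0.810%) in smooth muscle cells of that library. The smooth muscle share in the same library was 7 of 1523 cells (0.460%, 0.185 to 0.945%), at median depths before thinning of 708 UMIs in cluster 9 and 771 in smooth muscle cells. Within the double knockout library the summed class II level of cluster 9 was 10.2-fold that of smooth muscle cells, and within the Apoe-/- library it was 3.10-fold.

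The Apoe-/- cells of cluster 9 more often held a C1q or Lyz2 UMI than a class II UMI. After thinning, class II UMIs were in 6 of 96 cells (6.25%, 2.33 to 13.1%), the same share as in smooth muscle cells, while C1q or Lyz2 UMIs were in 64.6% (54.2 to 74.1%). They had 0.0867 chain UMIs per C1q or Lyz2 UMI, against 1.10 in cluster 13, 0.879 in cluster 8 and 0.380 in cluster 10. Among the thinned cells with a C1q or Lyz2 UMI, 1 of 62 had a class II UMI. Of the 34 thinned cells without one, 5 had a class II UMI (14.7%, 4.95 to 31.1%). That interval holds the 16.1% of the double knockout cells, none of which had a C1q or Lyz2 UMI. Without thinning, 12 of the 76 cells with a C1q or Lyz2 UMI had one, among them both cells that held 30 of the 49 class II UMIs.

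**Figure D4:**
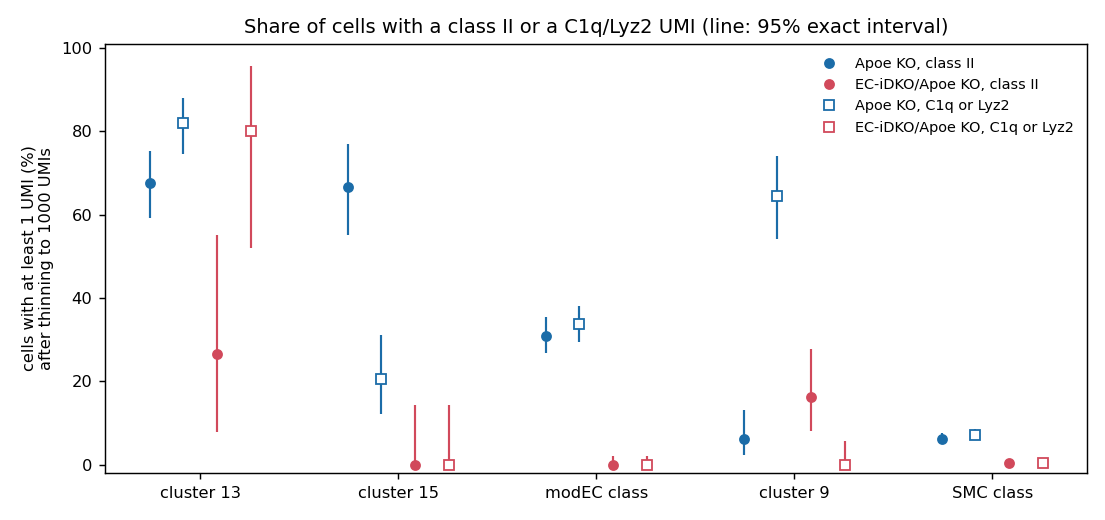
Share of cells with at least 1 UMI after thinning each cell to 1000 UMIs, for the 5 class II genes (filled circles) and for C1qa, C1qb, C1qc or Lyz2 (open squares), with 95% exact binomial intervals. In cluster 13 the class II shares are 67.6% and 26.7% with C1q or Lyz2 shares of 82.0% and 80.0%, and in cluster 9 the double knockout library has class II in 16.1% of cells.

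Class II was found in most Apoe-/- cells of cluster 15 and was uneven among them. In the Apoe-/- library 64 of its 80 cells had a class II UMI, with a median of 3 and a highest of 42 UMIs, and 49 of the 64 had no C1q or Lyz2 UMI. The 9 cells with at least 10 held 208 of the 416 class II UMIs. The 20 Apoe-/- cells of cluster 15 named immune/inflam all had class II, at 5664 CPM, with 12 C1q or Lyz2 UMIs and none of Ptprc, the leukocyte antigen CD45. They also held 501 UMIs of Acta2 among 34077, so the deposited name and the smooth muscle transcripts stand side by side. In the double knockout library 7 of 80 cells had a class II UMI, and Cd74, with 201 and 6 UMIs in all, was 19.4-fold lower (8.74 to 53.4). The cells of cluster 15 were unlike in the 2 libraries. The Apoe-/- cells were classed modEC (39), SMC (20), immune/inflam (20) and EC (1), and the double knockout cells SMC (59), modEC (16) and immune/inflam (5). The 5 adipocyte markers summed to 0 CPM in the Apoe-/- and 42784 CPM in the double knockout cells, with all 5 at 0 in the former. The 11 macrophage markers summed to 2153 and 9.41 CPM, with 1 and 10 of them at 0. The part of these differences in the class II value was not tested.

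Of the other class II locus genes, both that were measured over the whole library were called lower. H2-Oa, a chain of the H2-DM inhibitor, had 30 and 2 UMIs. H2-DMb1, the partner chain of H2-DMa, had 248 and 69 UMIs and was 1.85-fold lower (1.41 to 2.45). H2-DMb1 and H2-DMb2 are near-identical neighbours, so the split of reads between them is uncertain. Unlike Cd74, H2-DMb1 was called neither way outside cluster 13, at 10.9 and 9.70 CPM, and in cluster 9 it had 2 UMIs in the Apoe-/- and 9 in the double knockout library.

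Of 8 class II transcription genes, Ciita alone was called lower, near the 13.1% of all genes called lower, with 65 UMIs in the Apoe-/- and 1 in the double knockout library (33.5-fold, 5.80 to 1343). The other 7 were called neither way, Rfx5 with a log2 ratio of 0.56, Nfyb with -0.49 and Rfxank with -0.42, all subunits of the factors that bind the X and Y boxes. In cluster 13, Ciita had 55 and 1 UMIs and was called neither way. Ciita thus resembled the class II chains over the whole library, and its partners did not.

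Of 8 proteases and reductases of antigen processing, 3 were called lower over the whole library, beside 13.1% of all genes. Ctss, the cathepsin that trims the invariant chain, had 2316 and 36 UMIs and was 33.1-fold lower. Ctsb, Lgmn and Ctsz had log2 ratios of -0.75, -0.73 and -0.56, the last not called. Within cluster 13 all 8 were called lower, beside 5.62% of all genes, with a median log2 ratio of -1.89, led by Ifi30, the thiol reductase of the endosome (5.03-fold), Ctsb (4.39-fold), Ctsl (4.15-fold) and Ctsd (3.90-fold).

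Of 8 trafficking and turnover genes, March1, the ligase that marks class II for degradation, was the 1 called lower over the whole library, at 27 and 1 UMIs, a share near the 13.1% of all genes. Lamp1 had a log2 ratio of -0.32, Ap1s1 0.27 and Cd9 -0.25. Of 4 measured costimulation and checkpoint ligands, Cd86 (145 and 2 UMIs, 37.3-fold lower) and Cd80 (50 and 7 UMIs, 3.68-fold lower) were called lower, and Icosl and Cd274 were not, at log2 ratios of -0.47 and -0.07. In cluster 13, Cd86 had 127 and 1 UMIs.

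Class I genes went in both directions. Of 8 heavy chain genes with B2m, 2 were called higher and 2 lower over the whole library, beside 9.53% of genes called higher and 13.1% lower. H2-Q4 and H2-Q7 were called higher with log2 ratios of 1.32 and 0.61, and H2-T23 and B2m lower with -0.70 and -0.66. The H2-Q genes are near-identical copies and their counts are uncertain. Of 11 measured class I peptide loading genes 4 were called higher and none lower, namely Psmb10 (0.88), Pdia3 (0.81), Tap1 (0.75) and Psmb8 (0.64, all log2 ratios). In cluster 13, B2m, H2-D1 and H2-K1 were called lower, by 2.34-fold, 2.19-fold and 1.79-fold.

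Interferon gamma response genes went in both directions. Of 11 measured, 5 were called higher and 2 lower over the whole library, beside 9.53% and 13.1% of all genes. Irf1, an interferon-induced transcription factor, had 957 and 1560 UMIs and a log2 ratio of 1.66, and Iigp1, a GTPase of cell-autonomous defence, 1.84. The chemokine gene Cxcl10 had a log2 ratio of -2.12 and Irf8, a factor of macrophage and dendritic cell development, -2.01. The list median was 0.81, beside -4.93 for the 5 class II genes.

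**Figure D5:**
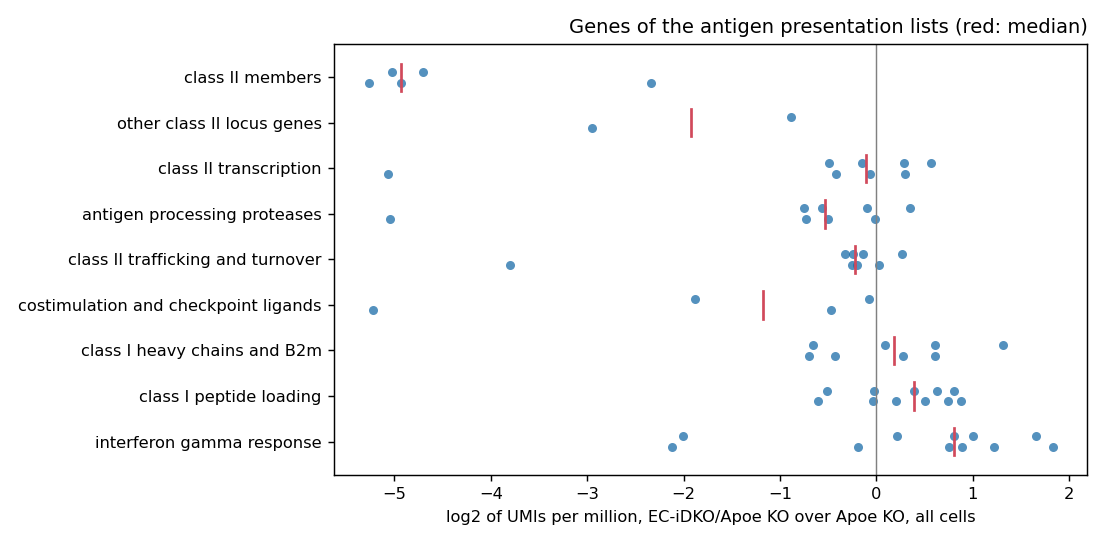
Log2 ratio of CPM over all cells, double knockout over Apoe-/- (horizontal axis), for each gene with at least 20 UMIs in 9 lists (rows), with a red line at each list's median. Of the class II genes 4 lie near -5, as do Ciita, Ctss and Cd86, and H2-DMa lies at -2.34, while class I peptide loading genes lie around 0.39.

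Across the 18 Apoe-/- clusters with at least 50 cells, the genes whose log2(CPM + 10) pattern was most like that of the class II sum were Laptm5 (r = 0.92), Cd53 (0.92), Ctss (0.91), Lgals3 (0.91), Wfdc17 (0.91), Mpeg1 (0.91), Ucp2 (0.90), Ciao2a (0.90), Tyrobp (0.90) and Fcer1g (0.90). The clusters share 1 library, and cluster 13 is the highest point of each, so r is a description over 18 points. H2-DMa itself had r = 0.85 with the sum, H2-DMb1 0.79 and the class I gene H2-K1 0.67. Of the promoter factors among the genes ranked, Nfya had r = 0.18, Rfxank -0.06, Creb1 -0.12, Nfyc -0.19 and Nfyb -0.35.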

How the data were processed

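Aortic cells of 2 libraries, 1 per genotype, were analysed from the deposited tables. The deposited values are counts of UMIs per cell and gene. The deposited mitochondrial ratio per cell is a fraction, and the deposited library name, cluster number and class are other values that the authors assigned. Per the submitters' processing notes, Cell Ranger and Seurat with mm10 were used, and their versions are not given in the sources used here. Of 10345 deposited entries, 2428 were second copies of Apoe-/- barcodes with identical counts and were dropped. The libraries shared 5 barcodes. Doublets were not called.

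UMIs were summed per population and scaled to 1000000. Sums carry exact Poisson, ratios exact conditional binomial and shares Clopper-Pearson intervals (95%). These cover counting error only. A count of 0 was set to a floor of 3 UMIs per library and population for a bound. Shares of cells were taken after thinning to 1000 UMIs. The rule for calling genes was checked on simulated counts. TMM factors came from edgeR 4.0.16 and size factors from DESeq2 1.42.0 (R 4.3.3), applied to the summed counts as scaling alone. All else used Python 3.11.15, numpy 2.4.6, scipy 1.17.1 and pandas 2.3.3.

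The 5 genes were always named. Of each pathway list, up to 4 genes with the largest log2 ratio of at least 20 UMIs are named, and the 10 genes with the highest r. Any other gene was named with its values already known. The members and lists were chosen with earlier results of these data known.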

Additional observations from a re-analysis of the deposited data

How the results depend on the processing

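Of 144 recomputed log2 ratios of the 5 genes and their sum, 140 were below 0, as in the original settings. The other 4 were all of H2-DMa in cluster 13, which was called neither way: 0.29 in cells filtered to 1000 UMIs or more with under 10% of mitochondrial UMIs, 0.042 after thinning to 1000 UMIs, and 1.22 on the macrophage marker scale, or 0.61 there without the highest cell of each library.

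Over the whole library the summed log2 ratio was -5.26 after thinning and -5.66 without the highest cells. In cluster 13 it was -1.52 in the filtered cells, -4.58 without the highest cells, -4.30 in cells with a C1q or Lyz2 UMI, -0.79 on the macrophage marker scale and -2.96 on that scale without the highest cells. Outside cluster 13 it was -3.58 in the filtered cells, -4.74 after thinning and -2.78 without cells holding a C1q or Lyz2 UMI. The alternatives on C1q or Lyz2 cells, on the macrophage marker scale and on the highest cells were chosen after seeing the data. The cause of each shift was not tested.

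In cluster 13 the filtered cells gave 11 pathway genes lower and 2 higher, against 17 and 1 (44 genes measured, against 45). Without thinning, the class II share was 77.8% in Apoe-/- cluster 13, 17.5% in Apoe-/- and 1.09% in double knockout SMC cells, and 17.4% in Apoe-/- cluster 9. Thinned to 500 UMIs it was 4.95% in Apoe-/- SMC cells and 5.50% in double knockout cluster 9, where the SMC share was 0.545%. With log2(CPM + 1), 5 of the 10 genes most similar in pattern were shared.

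TMM, DESeq2 size factors and leaving mitochondrial and ribosomal protein genes out of the total left each summed ratio within its interval, as did leaving out the 5 shared barcodes. No paired analysis was possible because each genotype has 1 library. The double knockout depth limits single cells: 1864 of 5489 reached 1000 UMIs, 15 of them in cluster 13. Genotype cannot be told apart from library, dissection or animal.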
